A study of Homo sapiens with 6 samples.

Results

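Replication-dependent histone mRNAs are the only mRNAs of animal cells that end in a stem-loop in place of a poly(A) tail, and they are made by a dedicated set of factors. The stem-loop-binding protein SLBP holds the 3′ end of the new transcript. The U7 small nuclear RNA, carried on a ring that contains LSM10 and LSM11, pairs with a sequence downstream of the stem-loop. A cleavage complex of SYMPK, CPSF2 and CPSF3 then cuts between them. The transcripts are made at histone locus bodies, which are organised by NPAT, and the exonuclease ERI1 trims and later degrades the stem-loop end. In dividing cells the pathway is active mainly in S phase, when new chromatin needs histones.

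The 10 genes described here, SLBP, LSM10, LSM11, ZNF473, NPAT, CASP8AP2, ERI1, CPSF2, CPSF3 and SYMPK, were chosen by symbol from the 36601 genes of the count table for their known roles in this pathway, and the choice was made with results of the same comparison already known. Their differences between the groups are therefore given as a description, with no test of their own. All 10 were among the 12263 genes that passed a filter of over 1 CPM (counts scaled to a common library total) in 2 or more libraries.

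RNA was sequenced from NK92 cells, an IL-2-dependent line from a human natural killer cell lymphoma, that stably expressed either the control hairpin, shCtrl, or shmiR155HG, a short hairpin RNA against the long noncoding RNA miR155HG. Each group had 3 libraries, and the cells of both groups had been treated with IL-2 at 1000 U/mL plus IL-12 at 10 ng/mL for 12 h. The comparison asks what a lower level of miR155HG changes in stimulated NK cells. The RNA was captured by its poly(A) tail, so a histone mRNA that ends in the stem-loop is largely lost from these libraries, while the mRNAs of the 10 processing factors, which have poly(A) tails, are captured normally. The labels do not say whether the libraries came from separate cultures or transductions, so the errors and p-values below measure only the spread between these libraries, which may be technical.

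Total counts were 33454786 to 39157264 per library, and pairs of replicates had a mean chi-square of 7.35 to 10.9 per gene. If each count were 1 read, this would be more than counting noise. Counts may stand for less than 1 read each, so the part beyond counting noise is not known. MIR155HG, the targeted gene, was at 1.88, 1.84 and 1.59 CPM in the shCtrl libraries and at 0.73, 0.499 and 0.299 CPM in the shmiR155HG libraries (log2 fold change −1.78, SE 0.43, adjusted p = 0.0045 by edgeR's quasi-likelihood test). Of 14 NK cell markers, 13 passed the filter, and CD7 stayed at or below 0.877 CPM. Of 17 markers of other cell types, 16 had a mean below 1 CPM, with HBG1, HBG2, EPCAM and AFP at 0 in all libraries. The exception was the T cell receptor component CD3E, at 327 to 340 CPM, while CD3D did not exceed 0.92 CPM and CD3G did not exceed 0.0822 CPM.

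The sequence that SLBP recognises is short and nearly the same in every histone gene of this class. The copies of the 4 replication-dependent histone genes with the smallest adjusted p in this comparison are shown. They run 5′ to 3′ on the coding strand as DNA in hg38, and are printed because the stem-loop ends the mRNAs of this pathway. Capitals mark the stem-loop of 16 bases, which has a stem of 6 base pairs and a loop of 4 bases.
HIST1H2AC: caaaGGCTCTTTTCAGAGCCcccct
HIST1H4C: caaaGGCCCTTTTCAGGGCCgctca
HIST2H2BE: caaaGGCTCTTTTCAGAGCCaccca
HIST1H2BJ: taacGGCTCTTTTAAGAGCCaccca
The marked bases lie at chr6:26124669-26124684 (plus strand), chr6:26104317-26104332 (plus strand), chr1:149886188-149886203 (minus strand) and chr6:27132321-27132336 (minus strand), in that order. HIST1H2AC and HIST2H2BE carry the same marked bases, and HIST1H4C and HIST1H2BJ each carry a form of their own. Of the 26 such histone genes that passed the filter, 24 were found in the annotation and 23 of these held a stem-loop that begins with GG and has this stem and loop length. In 9 of the 23, at least 1 annotated transcript ran more than 100 bases past the stem-loop.

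The second sequence of the pathway is the U7 RNA, whose Sm site is the seat of the ring with LSM10 and LSM11. The gene RNU7-1 lies at chr12:6943816-6943878 on the plus strand of hg38, is 63 bases long and has no row in the count table. It is shown because its special Sm site, in capitals, is what sets this ring apart from the ring of the spliceosome.
RNU7-1: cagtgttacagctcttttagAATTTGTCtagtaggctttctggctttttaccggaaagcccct
The Sm site starts at base 21, and the stretch before it holds the bases that pair with histone transcripts.

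SLBP was the 1 member with an adjusted p under 0.05 in the fit across all genes. It was lower in shmiR155HG cells, and no member was called higher. Of all 12263 genes tested, 15.3% were called, 7.26% higher and 8.02% lower in shmiR155HG cells, and nothing is read from the members' count against these shares because the members were proposed with this contrast in view. The log2 fold change was below 0 for 7 members and above 0 for 3, with a median of −0.08 against 0.00097 over all genes tested. In 4 members, SLBP, NPAT, ERI1 and CPSF3, the highest shmiR155HG library was below the lowest shCtrl library, and in the other 6 the groups overlapped. Over all genes tested, the groups did not overlap in 30.8%, and in 15.6% the shmiR155HG libraries were the lower ones.

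**Figure D1:**
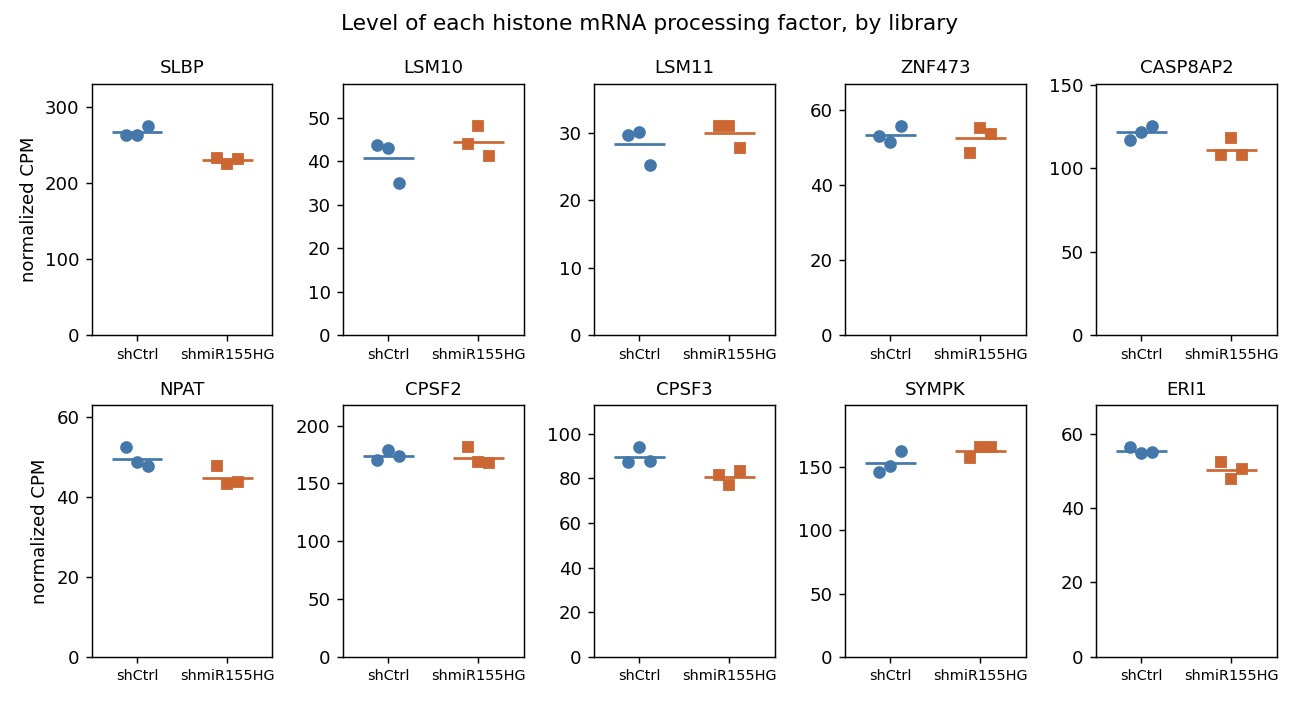
Normalized CPM of the 10 genes in each library, with circles for the 3 shCtrl libraries, squares for the 3 shmiR155HG libraries and a line at each group's mean; every vertical axis starts at 0. The groups are apart for SLBP, NPAT, ERI1 and CPSF3, where shmiR155HG is the lower group, and they overlap for the other 6 genes.

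SLBP binds the stem-loop from transcription to translation, and its protein is made before S phase and destroyed at its end. Its gene lies on the minus strand at chr4:1692731-1712344 (hg38) and its main transcript has 8 exons. SLBP mRNA was at 262.7, 262.1 and 275.1 CPM in the shCtrl libraries, from 10219, 9560 and 10721 counts. It was at 232.2, 224.4 and 231.5 CPM in the shmiR155HG libraries, from 8912, 8542 and 7743 counts. The lowest shCtrl library stood above the highest shmiR155HG library, and the libraries within a group lay close together. The means were 266.6 ± 7.35 and 229.4 ± 4.32 CPM (SD, n = 3 each), a log2 fold change of −0.22 (SE 0.037, 95% interval −0.29 to −0.14), or 86% of the shCtrl level with an interval of 81.6% to 90.7%. The coefficient of variation between replicates was 2.76% in shCtrl and 1.89% in shmiR155HG. Counting alone would give 1.04% if each count were 1 read, and more if counts stand for less than 1 read each. Among the 1874 genes called over the whole table, 36.2% had a smaller absolute change than SLBP, and the median absolute log2 fold change of called genes was 0.26. The fold was 1.16, under the 1.2 that the study set as a threshold. In bulk RNA, fewer cells that express a gene and less of its RNA per cell cannot be told apart.

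LSM10 and LSM11 take the places of SmD1 and SmD2 in the U7 ring, and LSM11 also makes the contact with the cleavage machinery. LSM10 was at 43.8, 43.1 and 35 CPM in shCtrl and at 43.9, 48.2 and 41.2 CPM in shmiR155HG. LSM11 was at 29.7, 30.1 and 25.3 CPM in shCtrl and at 31, 31.1 and 27.8 CPM in shmiR155HG. The groups overlapped for both genes, and both were lowest in shCtrl replicate 3. The log2 fold changes were 0.13 (SE 0.083, 95% interval −0.04 to 0.30) for LSM10 and 0.08 (SE 0.09, 95% interval −0.10 to 0.27) for LSM11. These were the least precise of the members, with coefficients of variation between shCtrl replicates of 12% and 9.46%. Without shCtrl replicate 3 the log2 fold changes were 0.04 for LSM10 and 0.01 for LSM11.

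ZNF473, a zinc finger protein that associates with the U7 particle, was at 52.9, 51.3 and 55.8 CPM in shCtrl and at 48.6, 55.2 and 53.6 CPM in shmiR155HG. The groups overlapped almost fully, with a log2 fold change of −0.02 (SE 0.068, 95% interval −0.16 to 0.12), whose sign changed when single libraries were left out (−0.06 to 0.03). ZNF473 overlaps VRK3 and 2 unnamed genes of the table, and SYMPK overlaps 1, so reads shared with these genes may be split between them.

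CASP8AP2, also called FLASH, pairs with LSM11 and is needed at the histone locus body. It was at 116.8, 121.9 and 125.5 CPM in shCtrl and at 107.9, 117.9 and 107.6 CPM in shmiR155HG. Replicate 2 of shmiR155HG lay within the shCtrl range and its other libraries lay below it. The log2 fold change was −0.13 (SE 0.05, 95% interval −0.23 to −0.02), and without that library it was −0.17, which passed the threshold over all genes.

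NPAT, the substrate of cyclin E–CDK2 that switches on histone gene transcription, was at 52.4, 48.6 and 47.7 CPM in shCtrl and at 47.6, 43.3 and 43.6 CPM in shmiR155HG. The groups did not overlap, but shCtrl replicate 3 and shmiR155HG replicate 1 nearly met. The means were 49.6 ± 2.5 and 44.8 ± 2.39 CPM (SD, n = 3 each), and the shmiR155HG level was 90.4% of shCtrl. Its log2 fold change of −0.15 (SE 0.07, 95% interval −0.29 to −0.00) did not pass the threshold over all genes.

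The cleavage module is shared with ordinary polyadenylated mRNAs. CPSF3 is the endonuclease, CPSF2 its inactive partner, and SYMPK the scaffold that joins them. CPSF3 was at 87.5, 93.9 and 87.6 CPM in shCtrl and at 81.3, 77 and 83.1 CPM in shmiR155HG, with no overlap (log2 fold change −0.16, SE 0.056, 95% interval −0.27 to −0.04). CPSF2 was at 170.1, 178.7 and 173.8 CPM in shCtrl and at 181.3, 168.3 and 167.3 CPM in shmiR155HG, so its highest and its lowest library were both shmiR155HG. Its log2 fold change was −0.02 (SE 0.042, 95% interval −0.10 to 0.07), and its sign changed when single libraries were left out (−0.05 to 0.01). SYMPK was at 145.9, 150.7 and 162.5 CPM in shCtrl and at 157.0, 165.3 and 165.4 CPM in shmiR155HG. The groups overlapped through shCtrl replicate 3, and the log2 fold change was 0.09 (SE 0.045, 95% interval −0.01 to 0.18). Without that library it was 0.13, which passed the threshold over all genes as higher in shmiR155HG. The 3 mRNAs of the module thus had values on both sides of 0, and differences between them were not tested.

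ERI1, the 3′ to 5′ exonuclease that acts on the stem-loop, was at 56.3, 54.8 and 55 CPM in shCtrl and at 52.3, 47.8 and 50.5 CPM in shmiR155HG. The shCtrl libraries differed by less than the shmiR155HG libraries, with coefficients of variation of 1.46% and 4.47%, and the groups did not overlap. The log2 fold change was −0.14 (SE 0.065, 95% interval −0.28 to −0.01).

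**Figure D2:**
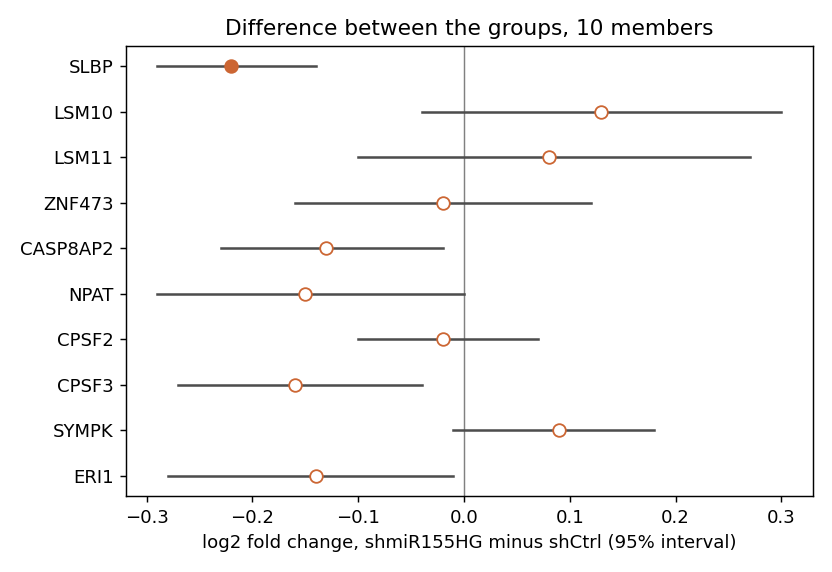
Log2 fold change of each of the 10 genes, shmiR155HG minus shCtrl, with its 95% interval from the fit across all genes; a filled point marks an adjusted p under 0.05. SLBP, at −0.22, is the filled point, and the other 9 genes lie between −0.16 and 0.13; the intervals are not adjusted for the number of genes.

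The summed level of the 10 mRNAs was 1018 to 1043 CPM in shCtrl and 971.6 to 983.1 CPM in shmiR155HG. Within this sum, the mean of SLBP alone went from 266.6 to 229.4 CPM. The 4 non-overlapping members and CASP8AP2 stood at 86% to 91.6% of their shCtrl level. These are the members with the lowest log2 fold changes, and SLBP alone among them was called. The remaining members stood at 98.3% to 109%. The median SE of the log2 fold changes was 0.061.

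Per kilobase of annotated exon, the factors differed far more from one another than between the groups. SLBP was the most abundant, at 131.6 ± 11.2 CPM per kb over all 6 libraries (SD), 29.7 times the level of LSM11, the least abundant at 4.44 CPM per kb. LSM10 followed SLBP at 28.2 CPM per kb and CPSF3 at 23.1, with ranges that overlapped. SYMPK at 15, CASP8AP2 at 14.3 and CPSF2 at 12.8 CPM per kb formed the middle, where each range overlapped that of the next. ERI1 at 8.27 and ZNF473 at 7.67 CPM per kb overlapped each other, and NPAT at 6.27 and LSM11 stood apart below them. The 2 U7-specific ring proteins, which enter the ring as single copies, thus differed 6.37-fold in mRNA level per length, or 9.53-fold when the longest transcript was used as the length. The order of the 10 genes was the same with either length, but the overlaps were not. With the longest transcript, CPSF3 (24.4 to 29.7 CPM per kb) overlapped SYMPK (22.3 to 25.3 CPM per kb). LSM10 and CPSF3 then did not overlap, and neither did SYMPK, CASP8AP2 and CPSF2. For LSM11 both lengths are 6.57 kb, so the change of length could not move its value. Its annotated 3′UTR takes up 5445 bases, and whether these cells use all of it was not tested. The same limit holds for CPSF2, whose lengths are 13.6 and 13 kb and whose annotated 3′UTR takes up 10401 bases. Before division by length, the shCtrl means were 40.6 CPM for LSM10 and 28.3 CPM for LSM11. They were 174.2 CPM for CPSF2 and 89.7 CPM for CPSF3, the reverse of their order per length.

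**Figure D3:**
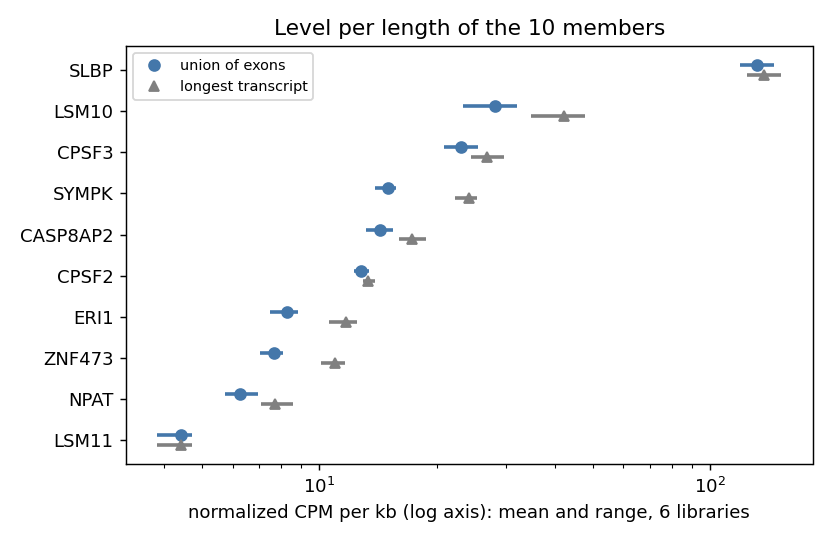
Normalized CPM per kilobase of each of the 10 genes on a log axis, with the mean and the range over all 6 libraries, for the union of annotated exons (circles) or the longest annotated transcript (triangles). SLBP stands at 131.6 and LSM11 at 4.44 CPM per kb of exon union, and the order is the same for both lengths.

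A layout that the choice by function did not use was found in 6 of the 10 members' genes. Another protein-coding gene started on the opposite strand within 1000 bases of the start of 6 of the 10 members (60%), against 19.6% of the 10779 protein-coding genes tested. This property was looked up after values had been seen and is given as a description. The partners were TACC3 for SLBP at 514 bases, VRK3 for ZNF473 at 232, ATM for NPAT at 406, NDUFB1 for CPSF2 at 52, ITGB1BP1 for CPSF3 at 123 and FOXA3 for SYMPK at 795, and FOXA3 did not pass the filter. TACC3, which helps build the mitotic spindle, was at 229.8 CPM in shCtrl and 220.9 CPM in shmiR155HG beside the lower SLBP (log2 fold change −0.06, adjusted p = 0.425, edgeR). Of the 5 partners tested, ATM, the kinase that responds to DNA double-strand breaks, was the 1 that passed. ATM was at 81.9, 80.4 and 87.1 CPM in shCtrl and at 72.2, 72.6 and 69.8 CPM in shmiR155HG, with no overlap (log2 fold change −0.22, SE 0.057, adjusted p = 0.00919, edgeR). Without shmiR155HG replicate 3 its adjusted p was 0.0504.

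NPAT and ATM are transcribed away from each other from a shared region, with start sites at chromosome 11 positions 108222638 and 108223044. The RefSeq promoter of NPAT, 250 bases before and 50 after its start, is shown. NPAT and ATM both had lower values in all shmiR155HG libraries, but NPAT was not called, and shared regulation was not tested. The stretch is the minus strand of chr11:108222589-108222888 in GRCh38.p14 and ends short of the ATM start. Capitals mark CCAAT boxes on either strand.
NPAT: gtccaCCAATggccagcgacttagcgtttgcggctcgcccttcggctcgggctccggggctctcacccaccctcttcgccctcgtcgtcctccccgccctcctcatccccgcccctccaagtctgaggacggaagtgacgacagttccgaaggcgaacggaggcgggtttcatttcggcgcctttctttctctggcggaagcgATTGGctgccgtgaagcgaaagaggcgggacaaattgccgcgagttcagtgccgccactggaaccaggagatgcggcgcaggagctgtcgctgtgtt
The boxes begin at positions −245 and −47 from the start, and the GC content is 64%. CCAAT on either strand was present in the promoters of 4 of the 8 members in the RefSeq table, LSM10, NPAT, CASP8AP2 and CPSF2, and in 35.7% of all 27305 promoters of this length. The E2F forms TTTCCCGC, TTTCGCGC, TTTGCCGC and TTTGGCGC were searched on both strands and were present for CASP8AP2 and CPSF3, and in 3.33% of all promoters. The cell cycle homology element TTTGAA was present for LSM11 alone among the 8, and in 15.4% of all promoters. A match of letters is not evidence of binding.

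MIR155HG is the host transcript of miR-155, whose sequence is shown because a match to its seed is what its direct targets share; capitals mark the seed, bases 2 to 8.
hsa-miR-155-5p: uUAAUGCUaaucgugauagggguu
The complementary site AGCATTA was searched in the 3′UTR of 1 main (canonical) transcript per gene, and other annotated transcripts were not searched. Such a 3′UTR was available for 9 members, all but CASP8AP2. The site occurred in 1 of these 9, ERI1, and in 11.9% of the 10762 genes tested that have one. The 3′UTR of SLBP, 866 bases long, held no such site.

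Around the members, gene lists of the wider pathway were compared in the same fit. The adjusted p-values below are from edgeR's quasi-likelihood test over all genes. For all 12263 genes tested, 7.26% were called higher and 8.02% lower in shmiR155HG cells. No list was tested as a set, and nothing is read from its count of called genes against these shares. Of 19 partners in cleavage and polyadenylation, 2 rose and 2 fell, with a median log2 fold change of 0.03. SSU72, a phosphatase of RNA polymerase II (0.17, adjusted p = 0.00881), and PCF11, a termination factor (0.17, adjusted p = 0.015), rose. NUDT21, which binds upstream of poly(A) sites (−0.15, adjusted p = 0.0102), and the poly(A) polymerase PAPOLA (−0.10, adjusted p = 0.0464) fell. All 4 calls were lost when 1 library was left out. Without shCtrl replicate 1 the adjusted p was 0.0815 for SSU72, 0.0642 for PCF11, 0.0751 for NUDT21 and 0.0865 for PAPOLA. SSU72 was also lost without shmiR155HG replicate 3 (0.0586), and PCF11 without shmiR155HG replicates 2 (0.117) or 3 (0.054). NUDT21 was lost without shCtrl replicate 2 (0.0561) or shmiR155HG replicate 1 (0.0529), and PAPOLA in all but the setting without shCtrl replicate 3, with adjusted p up to 0.228.

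Of 20 genes of the Sm ring and its assembly, which the U7 particle shares with the spliceosome, GEMIN6 alone was called. This SMN complex subunit fell from 34.2 ± 1.9 to 27.4 ± 3.2 CPM (SD, n = 3 each, log2 fold change −0.32, adjusted p = 0.015), and its adjusted p was 0.0752 without shCtrl replicate 1 and 0.119 without shmiR155HG replicate 3. The median of the list was −0.01. Without shCtrl replicate 3, 3 genes of this list were called lower.

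Of 12 genes for cap binding and elongation, 3 rose and none fell, with a median of 0.05. SRRT, also known as ARS2, links the cap to histone 3′ end processing, and it was at 269.2, 273.2 and 290.5 CPM in shCtrl and at 334.4, 321.4 and 326.5 CPM in shmiR155HG. The groups did not overlap, and the change of 0.24 on the log2 scale was past the threshold (SE 0.037, adjusted p = 3.61e-05). The elongation factor subunits SUPT4H1 (0.22, adjusted p = 0.0226) and SUPT5H (0.12, adjusted p = 0.0274) also rose. SUPT4H1 was lost without shCtrl replicate 2 (0.0694) and shmiR155HG replicates 1 (0.0649) or 3 (0.131). SUPT5H was lost without shCtrl replicate 1 (0.123) and without any 1 of shmiR155HG replicates 1, 2 and 3 (0.0813, 0.0695 and 0.0889).

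Of 25 genes for export, translation and decay of histone mRNA, 1 rose and 1 fell, with a median of −0.01. UPF1, the helicase that SLBP recruits to degrade histone mRNA at the end of S phase, was at 308.9, 325.8 and 324.6 CPM in shCtrl and at 383.9, 377.0 and 382.9 CPM in shmiR155HG. This was a rise with no overlap (log2 fold change 0.25, SE 0.035, adjusted p = 5.13e-06). The decapping enzyme DCP2 fell at the edge of the threshold (−0.16, adjusted p = 0.0466), with overlapping groups. Its adjusted p was 0.278 without shCtrl replicate 1, 0.103 without shCtrl replicate 2, 0.157 without shmiR155HG replicate 1 and 0.205 without shmiR155HG replicate 3.

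Of 15 regulators of histone gene transcription, 4 fell and none rose, with a median of −0.08. The largest change was in CCNE2, a cyclin E that drives the kinase acting on NPAT, at 78.4, 77.8 and 68.4 CPM in shCtrl and at 48, 44.8 and 44.4 CPM in shmiR155HG (log2 fold change −0.71, SE 0.067, adjusted p = 1.12e-08). Its kinase CDK2 fell as well, from 123.6 ± 3.74 to 100.2 ± 4.57 CPM (SD, n = 3 each, −0.30, adjusted p = 7.12e-05). E2F1, an activator of S-phase genes, fell by 0.21 (adjusted p = 0.000172) and its repressor RB1 by 0.16 (adjusted p = 0.00164) on the log2 scale. The libraries of the groups did not overlap for any of these 4 genes, and all 4 calls held when each library was left out.

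Of 10 genes linked to the destruction of SLBP protein, 2 fell and 1 rose, with a median of −0.04. CDK1, the mitotic kinase that marks SLBP for destruction, was at 150.2, 134.5 and 133.5 CPM in shCtrl and at 103.9, 104.5 and 111.7 CPM in shmiR155HG (−0.39, SE 0.051, adjusted p = 3.19e-06). CCNF, the ubiquitin ligase subunit that targets SLBP, fell by 0.21 on the log2 scale (adjusted p = 0.0125), and was lost without shCtrl replicate 3 (0.104) or shmiR155HG replicate 1 (0.0917). CUL1, a scaffold of the same kind of ligase, rose (0.11, adjusted p = 0.0189), and was lost without shCtrl replicate 1 (0.0834) and shmiR155HG replicates 1 (0.0788) or 2 (0.0626). Levels of SLBP protein were not measured.

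Cell cycle genes differed in both directions, and their part in the lower SLBP level was not tested. Of 15 S-phase genes, 8 fell, 7 were not called and none rose, with a median of −0.13, and their summed level was 6067 to 6295 CPM in shCtrl and 5476 to 5514 CPM in shmiR155HG. RRM2, which makes deoxynucleotides, fell from 978.5 ± 17.8 to 746.0 ± 7.19 CPM (SD, n = 3 each, adjusted p = 2e-10), and the replication factors CDC45 (−0.35, adjusted p = 3.26e-05), PCNA (−0.24, adjusted p = 3.35e-05) and MCM4 (−0.21, adjusted p = 4.71e-05) fell. Of 12 mitosis genes, 4 rose and 2 fell, with a median of 0.10, and 1 fell without shCtrl replicate 2, shmiR155HG replicate 2 or shmiR155HG replicate 3. With edgeR's exact test and the study's thresholds, 2 S-phase genes were called lower, and 2 mitosis genes were called higher and 0 lower. The kinetochore protein CENPF (0.37, adjusted p = 4.8e-09) and the mitotic exit regulator CDC20 (0.31, adjusted p = 5.09e-06) rose. The mitotic kinase PLK1 rose (0.22, adjusted p = 0.00585), with an adjusted p of 0.0509 without shCtrl replicate 1 and 0.0597 without shmiR155HG replicate 3. The topoisomerase TOP2A fell (−0.14, adjusted p = 0.00204).

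The replication-dependent histone mRNAs, the products of the pathway, were low in these poly(A)-selected libraries, with a summed level over 71 genes of 80.2 to 86.2 CPM in shCtrl and 142.8 to 159.1 CPM in shmiR155HG. Of the 26 that passed the filter, 14 rose and none fell, with a median log2 fold change of 0.94, a pattern already known when the list was used here. The count was 10 to 15 when 1 library was left out, and 5 when a mean of at least 5 CPM was required. HIST1H2AC, whose stem-loop is the first shown above, was at 11, 14.4 and 11 CPM in shCtrl and at 30.2, 31.6 and 30.9 CPM in shmiR155HG (1.34, SE 0.11, adjusted p = 7.86e-10). HIST1H4C was at 0.283, 0.384 and 0.103 CPM in shCtrl, from 11, 14 and 4 counts, and at 3.1, 2.55 and 1.58 CPM in shmiR155HG, from 119, 97 and 53 counts (3.23, SE 0.48, adjusted p = 1.73e-05). HIST2H2BE (2.09, adjusted p = 9.29e-05) and HIST1H2BJ (1.52, adjusted p = 0.00019) rose as well. Histone genes are near copies of one another, so their reads may be split between them. HIST2H3A and HIST2H3C, both among the 14, each had 19, 7 and 6 counts in shCtrl. In shmiR155HG they had 46, 48 and 52 and 46, 49 and 52 counts, so the 14 are not all separate signals. Levels of these histone genes from poly(A) capture do not measure the mRNA that ends in the stem-loop. Beside them, RMRP, an RNA that normally has no poly(A) tail and the 1 that passed the filter of the 2 such RNAs with a row in the count table, was at 0.103, 0.274 and 0.462 CPM in shCtrl and at 1.82, 3.07 and 1.23 CPM in shmiR155HG (2.86, SE 0.51, adjusted p = 0.000194). Whether carry-over of RNA without a tail moved with the group was not tested.

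**Figure D4:**
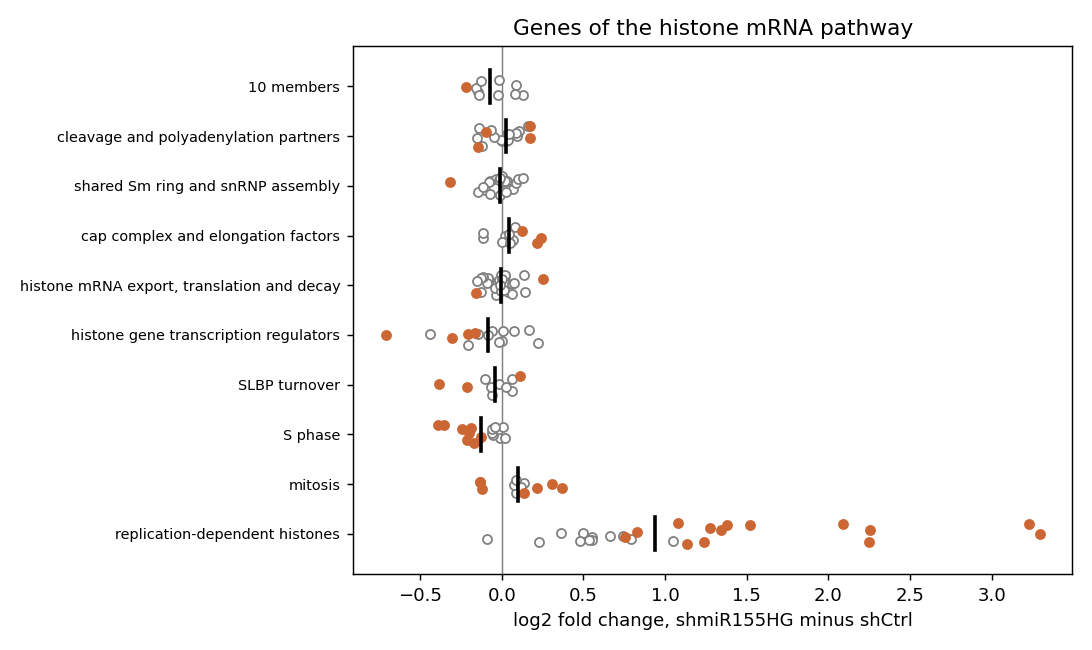
Log2 fold change, shmiR155HG minus shCtrl, of the tested genes of each list, where each point is a gene, a filled point has an adjusted p under 0.05 and a black bar is the median of the list. The 10 members have a median of −0.08 and the S-phase genes of −0.13, while the replication-dependent histones lie mostly to the right with a median of 0.94; vertical scatter within a row has no meaning.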

How the data were processed

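Upstream, the authors aligned paired reads of 150 bases to hg38 with HISAT2, ran StringTie on known transcripts and deposited whole-number gene counts made with prepDE.py3, without normalization. Versions, annotation release and strandedness are not given in the sources used here. Groups follow the sample titles. In the treatment field, replicates 2 and 3 of shmiR155HG show a differently numbered gene name.

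Genes over 1 CPM in 2 or more libraries were tested in R 4.3.3 with edgeR 4.0.16 (TMM scaling, robust quasi-likelihood fit, Benjamini-Hochberg adjusted p under 0.05). Alternatives used limma 3.58.1 and DESeq2 1.42.0. The test was checked on simulated data. Levels are TMM-scaled CPM. Positions and lengths come from GENCODE release 44, in which 36366 of 36601 gene IDs were found; promoters and miRNAs come from RefSeq. Depth was 33454786 to 39157264 counts.

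The members and lists were chosen with earlier results of these data known. Named genes were the members, MIR155HG, up to 4 called genes of each list with the smallest adjusted p and a mean of at least 1 CPM, and the 5 genes most correlated with SLBP, of which 1 is not reported here. Partners at shared promoters, ATM among them, were added after their values were seen.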

Additional observations from a re-analysis of the deposited data

How the results depend on the processing

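Values were recomputed under 16 alternatives of scaling, filter, test, halved counts, replicate block and libraries left out, and no called value changed sign. SLBP kept an adjusted p under 0.05 in all 16, with log2 fold changes of −0.23 to −0.19. With edgeR's exact test and the study's thresholds (unadjusted P under 0.01 and over 1.2-fold; tagwise dispersion was used here, and that of the study is not given in the sources used here), 551 genes were higher and 466 lower, against 890 and 984, 0 members were lower, since the 1.16-fold change of SLBP missed the fold limit, and 4 genes of the pathway lists were called in place of 17. Both gene counts from this rerun of the exact test are below those the paper reports, and the reason was not tested. With DESeq2, 2 members were lower (SLBP and CPSF3). Leaving out 1 library gave 580 to 891 genes higher (580 without shmiR155HG replicate 2), 0 to 1 members higher (SYMPK, without shCtrl replicate 3), 1 to 2 members lower (CASP8AP2 in addition, without shmiR155HG replicate 2) and 10 to 20 genes of the pathway lists (10 without shCtrl replicate 1, 11 without shmiR155HG replicate 1 and 10 without shmiR155HG replicate 3). Fewer samples enter these fits; the cause of the other changes was not tested. Deviations of libraries with the same replicate number correlated at −0.0179, 0.000983 and 0.00348 over the genes tested, so no shared deviation was seen. This cannot show whether such libraries were handled as pairs. With the number as a replicate block, 829 genes were higher, 909 lower and 1 member lower. Among single pathway genes, DCP2 was called in 5 and PAPOLA in 7 of the 16 alternatives. With a mean of at least 5 CPM required, MIR155HG, RMRP, HIST1H4C, HIST2H2BE and HIST1H2BJ have no value. Low counts limit the precision of the histone genes, and counts may stand for less than 1 read each because the read length given to prepDE.py3 is not stated.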

Other observations

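Across the 6 libraries, genes among the 5 whose level was most like that of SLBP, by Pearson correlation of log2(CPM + 0.5) among 9712 genes other than the 10 members averaging 5 CPM or more, were the receptor TIE1 (r = 0.9993), the cyclin CCND3 (0.9978), the Wnt signalling protein DVL2 (0.9963) and the GTPase RAB23 (0.9954). This is a description of 6 points that fall into 2 groups and share the same libraries, and 603 genes had r over 0.9. Genes picked for following SLBP, which was lower in shmiR155HG, are lower there by that choice. Their adjusted p-values below are therefore no separate result. TIE1 (log2 fold change −0.77, SE 0.126, adjusted p = 7.74e-05, edgeR), CCND3 (−0.35, SE 0.0393, adjusted p = 1.98e-07), DVL2 (−0.27, SE 0.0646, adjusted p = 0.00462) and RAB23 (−0.65, SE 0.107, adjusted p = 8.23e-05) fell.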
